A study of Mus musculus with 12 samples.

Results

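Ceramides are built from serine and a fatty acyl chain, and this account follows 10 genes of that route in mouse liver: Sptlc1, Sptlc2, Cers2, Cers4, Cers5, Cers6, Degs1, Degs2, Asah1 and Smpd3. They were chosen by name, each from the array row that carries its symbol alone, and all 10 were measured among 19938 genes. Each of the 10 had a single row. The livers came from male C57BL/6J mice, and the labels give an age of 8 weeks for both groups. A GFP adenovirus was given to 6 control mice and a ChREBP adenovirus to 6 others through the tail vein, and their livers were taken in the fed state after 3 weeks. ChREBP, encoded by Mlxipl, is a transcription factor that switches on glycolytic and lipogenic genes when glucose is plentiful. GFP is an inert fluorescent protein, so the control mice carried a virus as well. The promoter of the viruses, the species and isoform of the ChREBP insert and the share of hepatocytes reached are not given by the labels. The labels call the 6 arrays of a group biological replicates, and each liver was read on 1 array.

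Ceramide synthesis starts in the endoplasmic reticulum, where serine palmitoyltransferase joins serine to palmitoyl-CoA, the committed step of the pathway. A reductase then makes dihydrosphingosine, ceramide synthases attach a second fatty acid, and a desaturase turns dihydroceramide into ceramide. Each ceramide synthase prefers acyl chains of a certain length. Cers2 makes the very-long-chain ceramides that prevail in liver, Cers4 uses long saturated chains, and Cers5 and Cers6 use palmitoyl-CoA. Ceramide is converted to sphingomyelin or glycosphingolipids, is regained from sphingomyelin by sphingomyelinases, and is cut to sphingosine by ceramidases. In fatty liver and insulin resistance, palmitoyl ceramides have drawn attention as harmful lipids.

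Because ChREBP binds, together with Mlx, to elements made of a pair of E-box-like motifs, the promoters of the members were searched for the E-box CACGTG, for the CCAAT box (CCAAT or, on the other strand, ATTGG) and for the ChoRE consensus, on both strands. Promoter windows of RefSeq, build GRCm38.p6, reach from 250 bases before a start site to 50 bases after it, and 8 of the 10 members have one in the table used. The 250 bases before the start are printed 5′ to 3′ for the 3 members with an E-box and for Sptlc2, the other member that separated the groups fully. Capitals mark E-boxes and CCAAT boxes. For Cers6, Cers2 and Degs1 the RefSeq gene begins further upstream than this start, so the bases shown also lie within the span of a longer transcript.
Cers6, chr2:68861191-68861440 (plus strand): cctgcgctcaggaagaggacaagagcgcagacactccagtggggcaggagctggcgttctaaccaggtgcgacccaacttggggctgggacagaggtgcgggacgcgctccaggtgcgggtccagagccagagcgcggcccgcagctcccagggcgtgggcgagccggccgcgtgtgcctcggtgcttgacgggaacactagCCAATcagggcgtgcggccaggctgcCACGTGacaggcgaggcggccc
Sptlc2, chr12:87388356-87388605 (minus strand): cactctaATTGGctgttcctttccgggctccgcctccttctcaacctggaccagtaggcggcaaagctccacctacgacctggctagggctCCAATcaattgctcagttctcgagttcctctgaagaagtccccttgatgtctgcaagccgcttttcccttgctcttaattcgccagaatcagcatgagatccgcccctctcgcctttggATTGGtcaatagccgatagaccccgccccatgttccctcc
Cers2, chr3:95314940-95315189 (plus strand): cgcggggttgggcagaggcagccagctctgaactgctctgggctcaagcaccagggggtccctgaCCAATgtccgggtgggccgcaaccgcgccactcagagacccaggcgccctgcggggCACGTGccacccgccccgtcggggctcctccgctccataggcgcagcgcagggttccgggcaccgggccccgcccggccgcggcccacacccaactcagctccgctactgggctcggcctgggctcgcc
Degs1, chr1:182282196-182282445 (minus strand): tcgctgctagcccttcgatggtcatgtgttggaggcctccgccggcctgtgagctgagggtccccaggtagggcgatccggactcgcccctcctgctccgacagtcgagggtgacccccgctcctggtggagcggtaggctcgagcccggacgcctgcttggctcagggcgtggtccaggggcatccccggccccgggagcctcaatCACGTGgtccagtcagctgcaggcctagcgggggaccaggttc

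In Cers6 the E-box lay at positions -22 to -17 from the start and a CCAAT box at -48 to -44. In Cers2 the E-box lay at -129 to -124, and in Degs1 at -43 to -38. The Sptlc2 window held 3 CCAAT boxes, from -243 to -36, and no CACGTG. The 8 genes have 9 windows, since Cers2 has a second one, which held none of the motifs. An E-box stood in 1 of the 4 genes with a window that were higher in ChREBP livers and in 2 of the 4 that did not pass the test. Of all 27025 mouse genes with a window, 8.09% hold CACGTG in at least 1 window, 41.1% a CCAAT box and 0.137% a match to the ChoRE consensus. Counted over the 32851 windows, all of this length, the shares are 7.15%, 37.4% and 0.119%. The ChoRE consensus was found in 0 of the 9 member windows. Among the other sphingolipid genes described further on, 9 of 51 genes with a window held an E-box in at least 1 window, of which 3 were higher, 2 lower and 4 neither, and 9 of the 51 have several windows. A match is a run of letters in a window and not a measured binding site.

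**Figure D1:**
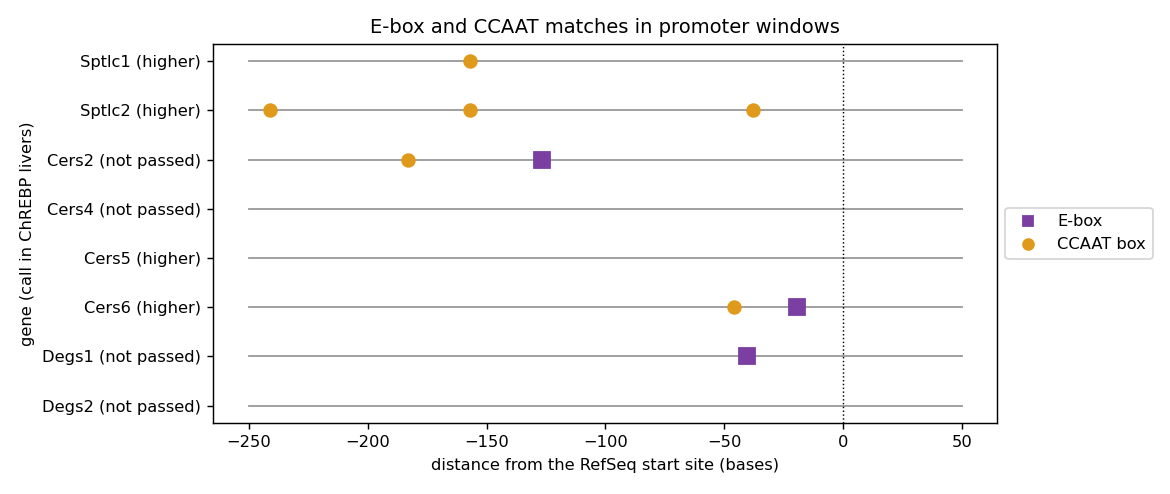
Positions of CACGTG (squares) and of CCAAT boxes (circles) in the first promoter window of the 8 members that have one, in bases from the RefSeq start (dotted line), with each gene's call in ChREBP livers. E-boxes stand in Cers6, Cers2 and Degs1, of which Cers6 alone was called higher.

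The comparison of ChREBP with GFP livers asks which transcripts differ when ChREBP is in excess. The label was checked first. Mlxipl measured 9.07 to 9.61 (log2) on the GFP arrays and 10.74 to 10.96 on the ChREBP arrays, a difference of 1.57 ± 0.09 (SE, n = 6 per group), with p = 0.00216 by an exact two-sided permutation test, the smallest its 924 assignments allow. Array medians lay between 5.96 and 6.05, and arrays correlated at 0.981 to 0.997 within groups and 0.964 to 0.983 between them.

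The livers also differed in markers of cell types, which are given here because they move with the groups. Hepatocyte markers averaged 12.48 to 12.55 on GFP arrays and 12.22 to 12.35 on ChREBP arrays, with 6 of 8 lower. Cps1 fell most among them, with a difference of -0.43. Alb and Apoc3 of the hepatocyte list did not pass (limma adjusted p = 0.205 and 0.0825), with differences of -0.07 and 0.09. Recruited macrophage markers averaged 7.06 to 7.28 and 8.06 to 8.37, with 6 of 8 higher, among them Gpnmb and Cd9. Lyz2 and Trem2 of that list did not pass (limma adjusted p = 0.0932 and 0.0876), with differences of 0.55 and -0.10. Every ChREBP value of Trem2 lay below every GFP value. All 8 T and NK cell markers were higher, with list means of 5.56 to 6.02 and 6.31 to 6.78. Of 8 Kupffer cell markers, 4 were higher and 4 lower. List means overlapped between the groups for B cells, neutrophils, endothelial, stellate, bile duct and fat cells. ChREBP 5 had the highest mean of all arrays in several of these lists, with 6.65 for neutrophils against at most 5.84 on any other array, 5.84 for B cells against at most 5.37, 6.69 for bile duct cells against at most 6.27 and 8.65 for endothelial cells against at most 8.48. Markers of pancreatic acinar cells averaged 5.45 to 5.66 on GFP arrays but 12.08 on ChREBP 4, 11.86 on ChREBP 5, 7.26 on ChREBP 2 and 6.29 on ChREBP 6. Adipocyte markers were highest on GFP 4, GFP 6 and ChREBP 6, at 6.69, 6.64 and 6.73. The part of these cells in the differences below was not tested. In whole tissue, fewer cells of a type and less RNA per cell cannot be told apart.

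**Figure D2:**
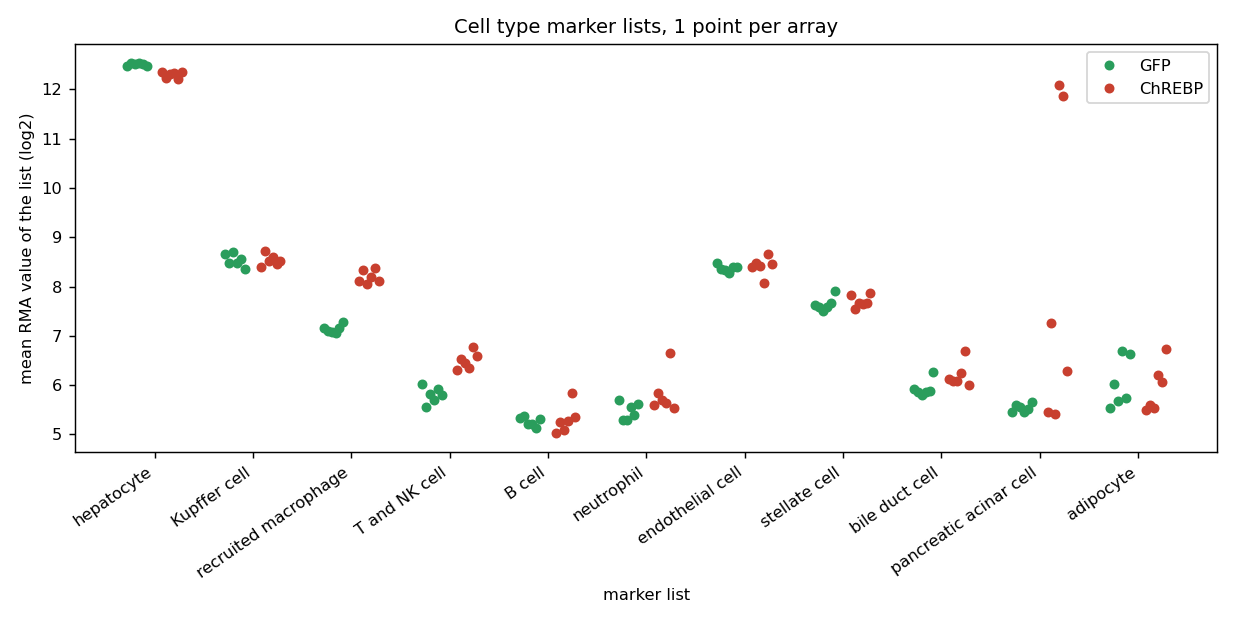
Mean log2 RMA value of each cell type marker list, 1 point per array, GFP in green and ChREBP in red. The recruited macrophage and the T and NK cell lists are higher on every ChREBP array, the hepatocyte list is lower on every ChREBP array, and the acinar list stands near 12 on 2 ChREBP arrays.

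Of the 10 genes, 5 were higher in ChREBP livers (Sptlc1, Sptlc2, Cers5, Cers6 and Smpd3), 0 were lower and 5 did not pass limma's test (Cers2, Cers4, Degs1, Degs2 and Asah1). Among all 19938 genes tested, 13.3% were higher and 13.7% lower at an adjusted p under 0.05. The median difference of the 10 genes was 0.17 on the log2 scale, against -0.04 over all genes. In Sptlc2 and Cers6 every ChREBP array lay above every GFP array, which held for 8.33% of all genes, and the reverse, seen in 0 of the 10, held for 6.83%. All differences below are ChREBP minus GFP on the log2 scale of the deposited RMA values, with n = 6 per group.

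**Figure D3:**
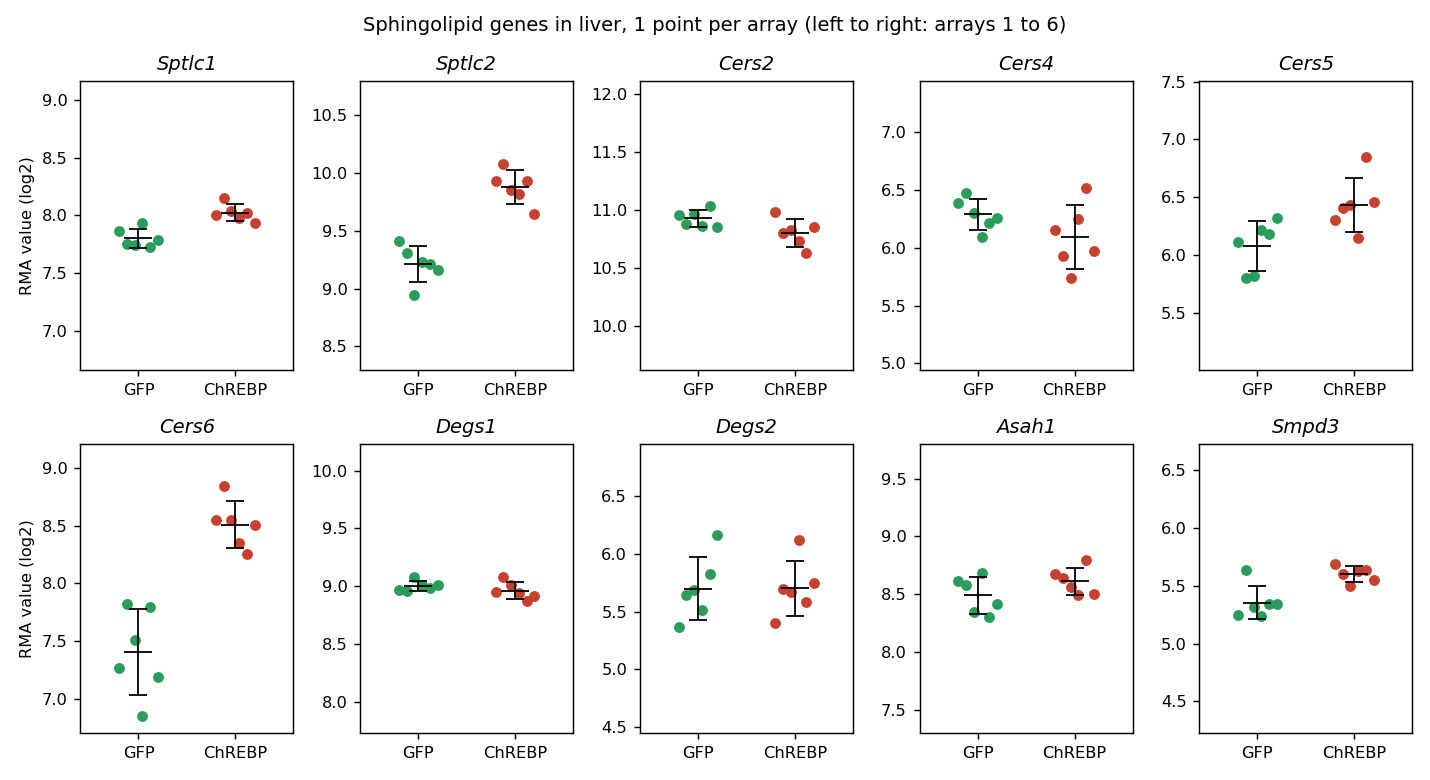
Log2 RMA values of the 10 genes, 1 point per array, with arrays 1 to 6 from left to right in each group, the mean (long bar) and the SD (error bars). Each panel spans the same range of log2 units, so distances compare between panels and heights do not. Cers6 and Sptlc2 leave a gap between the groups, and the other 8 genes overlap.

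Serine palmitoyltransferase is a complex of Sptlc1 and the catalytic subunit Sptlc2. Sptlc2 measured 9.41, 9.31, 8.95, 9.23, 9.22 and 9.16 on GFP 1 to 6 and 9.93, 10.08, 9.85, 9.82, 9.93 and 9.64 on ChREBP 1 to 6. The lowest ChREBP value, on ChREBP 6, was above the highest GFP value, on GFP 1. The mean rose from 9.21 ± 0.16 (SD) to 9.88 ± 0.15, a difference of 0.66 ± 0.08 (SE) or 1.58-fold, with an adjusted p of 3.39e-05. Sptlc1 measured 7.86, 7.75, 7.74, 7.94, 7.73 and 7.79 on the GFP arrays and 8.01, 8.15, 8.04, 7.98, 8.02 and 7.94 on the ChREBP arrays. The groups touched, with GFP 4 and ChREBP 6 both at 7.94. The mean rose by less, from 7.80 ± 0.08 to 8.02 ± 0.07, a difference of 0.22 ± 0.05 (SE) with an adjusted p of 0.0051. Within arrays, the distance from Sptlc1 to Sptlc2 was 1.21 to 1.55 in GFP livers and 1.71 to 1.93 in ChREBP livers. The array values of the subunits thus changed unequally, by 0.44 (95% interval 0.29 to 0.60). The exact two-sided permutation test gave p = 0.00216, and 0.00866 after adjustment over the 4 pairs compared. Whether the 2 rows respond alike to a change in RNA was not tested.

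Among the ceramide synthases, Cers6, one of the pair that uses palmitoyl-CoA, had the largest difference of the 10 genes. It measured 7.27, 7.82, 7.51, 6.86, 7.80 and 7.19 on the GFP arrays and 8.55, 8.84, 8.55, 8.35, 8.26 and 8.51 on the ChREBP arrays. The GFP livers spread more widely than the ChREBP livers, with GFP 4 lowest, and the groups did not overlap. The mean rose from 7.41 ± 0.38 (SD) to 8.51 ± 0.20, a difference of 1.10 ± 0.15 (SE) or 2.15-fold, with an adjusted p of 9.59e-05. Without GFP 4, GFP 6 and ChREBP 6, where the mean of the adipocyte markers was high, the difference was 0.91. Without ChREBP 4 and ChREBP 5, where acinar markers were high, it was 1.20.

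Cers5, which shares the acyl preference of Cers6, measured 6.12, 5.80, 5.82, 6.22, 6.18 and 6.32 on the GFP arrays and 6.31, 6.41, 6.43, 6.15, 6.84 and 6.46 on the ChREBP arrays. ChREBP 4 fell inside the GFP range and ChREBP 5 stood highest. The mean rose from 6.08 ± 0.22 (SD) to 6.43 ± 0.23, a difference of 0.35 ± 0.12 (SE) with an adjusted p of 0.0356. That call lay close to the threshold and was kept in 12 of 23 alternative analyses, with adjusted p from 0.0175 to 0.0780. Without ChREBP 5 the difference was 0.27 (adjusted p = 0.0610). The gap between the differences of Cers6 and Cers5 was 0.75 (95% interval 0.17 to 1.32), with an exact permutation p of 0.0238 and 0.0476 after adjustment over the 4 pairs. Leaving out any of 9 single arrays took the adjusted p of this gap past 0.05, up to 0.0952 without ChREBP 2, and it was 0.238 with a gap of 0.46 without GFP 4, GFP 6 and ChREBP 6.

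Cers2 and Cers4, the members that use longer chains, did not pass the test. Cers2 measured 10.96, 10.88, 10.97, 10.86, 11.04 and 10.86 on the GFP arrays and 10.98, 10.80, 10.83, 10.73, 10.63 and 10.85 on the ChREBP arrays. ChREBP 1 lay within the GFP range, and the other 5 ChREBP values lay below it. The difference was -0.13 ± 0.06 (SE; 95% interval -0.25 to 0.00) with an adjusted p of 0.129. Cers4 measured 6.39, 6.48, 6.30, 6.09, 6.22 and 6.26 on the GFP arrays and 6.15, 5.93, 5.74, 6.25, 6.52 and 5.97 on the ChREBP arrays. The groups overlapped widely, and the highest of all 12 values was that of ChREBP 5. The difference was -0.20 ± 0.11 (SE) with an adjusted p of 0.208. Without ChREBP 5 alone it became -0.28 with an adjusted p of 0.0379, and without ChREBP 4 and ChREBP 5 it was -0.34 with an adjusted p of 0.0131, so that Cers4 was then called lower. Without ChREBP 3, its lowest array, the difference was -0.13 with an adjusted p of 0.401. The differences of Cers4 and Cers2 stood -0.07 apart (95% interval -0.42 to 0.28; exact permutation p = 0.671, adjusted 0.749), and -0.28 apart without ChREBP 4 and ChREBP 5 (exact permutation, adjusted p = 0.019).

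The desaturases showed no detectable difference. Degs1, the main dihydroceramide desaturase, measured 8.96 to 9.08 on the GFP arrays and 8.87 to 9.08 on the ChREBP arrays. Its difference was -0.04 (95% interval -0.14 to 0.05; adjusted p = 0.503), a narrow interval. Degs2, which can also hydroxylate dihydroceramide, spread far more, from 5.37 to 6.16 and from 5.40 to 6.12. Its mean over all arrays, 5.70, lay below the array medians. Its difference was 0.0031 (95% interval -0.28 to 0.28; adjusted p = 0.988), and its sign turned in 8 of 23 alternative analyses. The differences of the desaturases lay 0.05 apart (95% interval -0.29 to 0.38), with an exact permutation p of 0.749, before and after adjustment.

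Asah1 and Smpd3 act on the breakdown side. Asah1, the acid ceramidase of lysosomes, measured 8.62, 8.58, 8.35, 8.69, 8.30 and 8.41 on the GFP arrays and 8.68, 8.64, 8.56, 8.50, 8.80 and 8.51 on the ChREBP arrays. The ranges overlapped, and the difference of 0.12 (95% interval -0.04 to 0.28) had an adjusted p of 0.248. Smpd3, a neutral sphingomyelinase that releases ceramide from sphingomyelin, measured 5.25, 5.63, 5.31, 5.24, 5.34 and 5.34 on the GFP arrays and 5.68, 5.60, 5.50, 5.63, 5.64 and 5.55 on the ChREBP arrays. GFP 2 alone reached into the ChREBP range. The mean of Smpd3 over all arrays, 5.48, lay below the array medians of 5.96 to 6.05. Whether it stood above background was not tested. The mean rose from 5.35 ± 0.14 (SD) to 5.60 ± 0.07, a difference of 0.25 ± 0.06 (SE) with an adjusted p of 0.0116. Without GFP 4, GFP 6 and ChREBP 6 the difference was 0.23 and its adjusted p 0.0719.

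**Figure D4:**
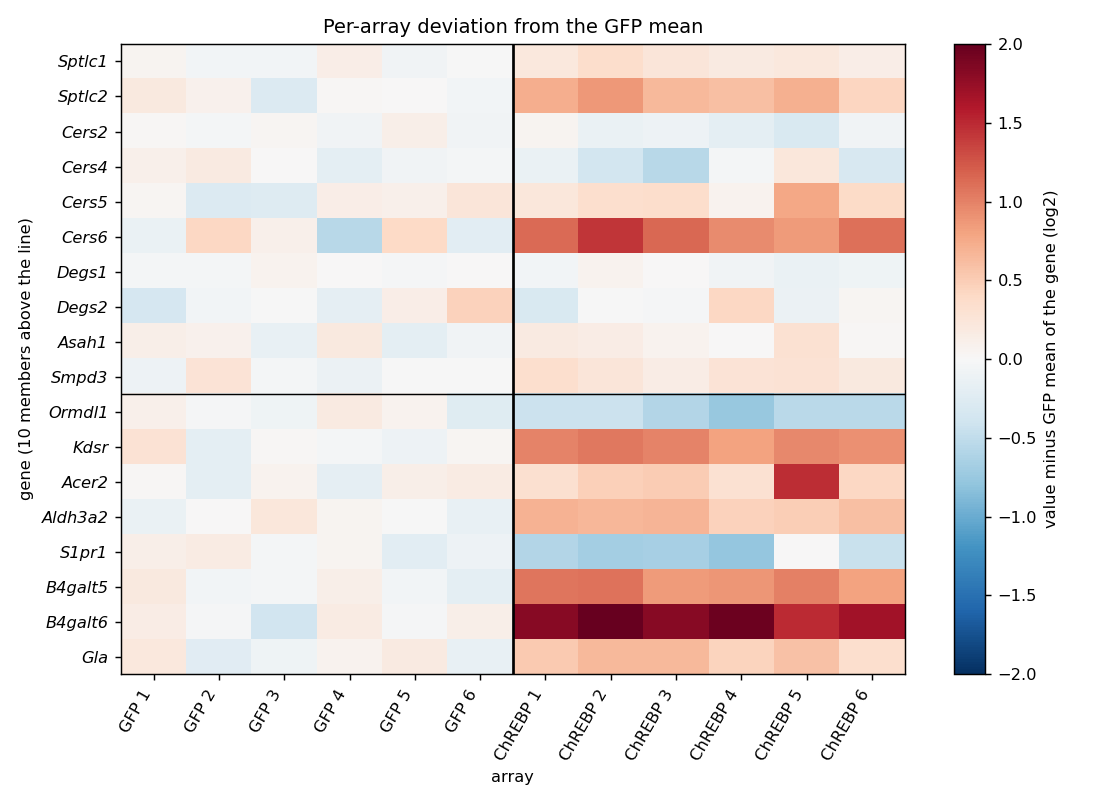
Log2 value minus the gene's GFP mean, for each array (columns, 6 GFP then 6 ChREBP) and gene (rows, the 10 genes above the line and 8 other sphingolipid genes below it). Averaged over the ChREBP arrays, B4galt6 lies furthest above its GFP mean, followed by Cers6, Kdsr and B4galt5, Ormdl1 is below its GFP mean on all 6, and ChREBP 5 stands apart for Acer2 and S1pr1.

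The rest of the pathway was described through a list of 60 further sphingolipid genes set by function. The 56 analysed here had 19 members higher, 10 lower and 27 that did not pass, with a median difference of 0.06. Over all genes, as given above, 13.3% were higher and 13.7% lower. In 12 of the 56 every ChREBP array lay above every GFP array, as in 8.33% of all genes, and in 3 below, as in 6.83% of all genes. The counts by step that follow are read against the same shares, and with so few genes a step they are descriptions only. The remaining genes of the list were not analysed here.

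At the entry step, 2 of the 6 further subunits and regulators of serine palmitoyltransferase were lower and 0 higher. Both are Ormdl proteins, which hold the enzyme in check when ceramide is plentiful. Ormdl1 measured 8.07, 7.95, 7.89, 8.15, 8.03 and 7.73 on the GFP arrays and 7.54, 7.54, 7.39, 7.21, 7.44 and 7.43 on the ChREBP arrays. Every ChREBP value lay below every GFP value, and the difference was -0.55 ± 0.07 (SE) with an adjusted p of 8.57e-05. Ormdl2 was lower by a difference of -0.31 (adjusted p = 0.00645), and Ormdl3, Sptlc3, Sptssa and Sptssb did not pass, with differences of -0.26 to 0.08. Kdsr, the reductase of the next step, measured 8.49, 8.01, 8.23, 8.17, 8.11 and 8.25 on the GFP arrays and 9.21, 9.26, 9.20, 9.01, 9.17 and 9.13 on the ChREBP arrays. The groups lay far apart, with a difference of 0.96 ± 0.07 (SE) or 1.94-fold and an adjusted p of 4.01e-07. Cers3, a synthase known from skin, was lower by a difference of -0.32 (adjusted p = 0.0317), and the call was kept in 12 of 22 alternative analyses. Without GFP 4, GFP 6 and ChREBP 6 the difference of Cers3 was -0.20 (adjusted p = 0.130). Its mean over all arrays, 5.06, lay below the array medians of 5.96 to 6.05, and whether it stood above background was not tested. Fa2h, which hydroxylates the fatty acid of sphingolipids, was higher by 0.33 (adjusted p = 0.0198). It was not called without GFP 4, GFP 6 and ChREBP 6 (0.29, adjusted p = 0.0829).

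The sphingomyelin synthases split. Sgms1, the Golgi enzyme, measured 7.55 to 8.12 on the GFP arrays and 8.14 to 8.58 on the ChREBP arrays, a difference of 0.44 ± 0.09 (SE; adjusted p = 0.00287) with no overlap. Sgms2, which also works at the plasma membrane, was lower by a difference of -0.28 (adjusted p = 0.0155), which became -0.22 with an adjusted p of 0.0750 without ChREBP 4 and ChREBP 5. Samd8, a related synthase, did not pass. Cerk, the kinase that makes ceramide phosphate, had a difference of 0.08 (adjusted p = 0.300) and Cptp did not pass either. Of 6 other sphingomyelinase genes, Smpd4 was higher by 0.30 (adjusted p = 0.00292) and Smpdl3a, a relative of acid sphingomyelinase by sequence, by 0.44 (adjusted p = 0.000126). Smpd1, Smpd2, Enpp7 and Smpdl3b did not pass, with differences of -0.23 to 0.15.

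All 4 ceramidases other than Asah1 passed the test, with 3 higher and 1 lower, where 13.3% and 13.7% of all genes were. Asah2, the neutral ceramidase, measured 9.16 to 9.44 on the GFP arrays and 9.48 to 9.70 on the ChREBP arrays, a difference of 0.34 ± 0.06 (SE; adjusted p = 0.000916). The alkaline ceramidase Acer2 measured 7.37 to 7.72 on the GFP arrays, and 7.88, 8.03, 8.06, 7.87, 9.03 and 7.96 on ChREBP 1 to 6. ChREBP 5 stood well above the other 5, all of which were still above the GFP range. The difference was 0.58 ± 0.17 (SE; adjusted p = 0.019), and 0.40 without ChREBP 5 (adjusted p = 0.00108). Acer2 has 2 rows, and with their mean the difference was 0.24 and did not pass (adjusted p = 0.0861), so the dimmer row did not show the rise. Without GFP 4, GFP 6 and ChREBP 6 the difference of the brighter row was 0.61 with an adjusted p of 0.0606. Acer3 was higher by 0.37 (adjusted p = 0.0377), a call kept in 11 of 23 alternative analyses. Acer1 was lower by a difference of -0.27 (adjusted p = 0.0105), which became -0.23 with an adjusted p of 0.0789 without GFP 4, GFP 6 and ChREBP 6. The mean of Acer1 over all arrays, 4.98, lay below the array medians of 5.96 to 6.05, and whether it stood above background was not tested.

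Sphingosine, the product of ceramidases, is phosphorylated to a signalling lipid and then degraded or recycled. Of 6 genes of this metabolism 1 was higher, 1 lower and 4 (Sphk1, Sphk2, Sgpl1 and Sgpp2) did not pass, with differences of -0.12 to 0.12. Aldh3a2, which oxidises the fatty aldehyde left by sphingosine phosphate lyase, measured 11.04, 11.18, 11.41, 11.23, 11.18 and 11.03 on the GFP arrays and 11.87, 11.84, 11.87, 11.64, 11.67 and 11.79 on the ChREBP arrays. All ChREBP values were higher, by 0.60 ± 0.07 (SE; adjusted p = 1.79e-05) in the mean. Sgpp1, a phosphatase that returns sphingosine phosphate to sphingosine, measured 9.16 to 9.43 and 8.77 to 9.04, a difference of -0.39 ± 0.06 (SE; adjusted p = 0.000343) with no overlap. Of 7 transporters and receptors of sphingosine phosphate, S1pr1, a receptor of endothelial cells and lymphocytes, was lower and S1pr2 higher. S1pr1 measured 8.78 to 9.15 on the GFP arrays and 8.22 to 8.54 on 5 ChREBP arrays. The remaining array, ChREBP 5, fell inside the GFP range, and the difference was -0.52 ± 0.11 (SE; adjusted p = 0.00374), and -0.63 without ChREBP 5 (adjusted p = 3.97e-05). S1pr2 differed by 0.28 (adjusted p = 0.0276), a call kept in 13 of 23 alternative analyses. Spns2, Mfsd2b, S1pr3, S1pr4 and S1pr5 did not pass, with differences of -0.11 to 0.0016.

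In glycosphingolipid synthesis, 4 of 10 genes were higher and 1 lower, against 13.3% and 13.7% of all genes. The most marked were the lactosylceramide synthases, which add galactose to glucosylceramide. B4galt6 measured 5.57, 5.40, 5.05, 5.59, 5.40 and 5.55 on the GFP arrays and 7.25, 7.52, 7.25, 7.38, 6.92 and 7.10 on the ChREBP arrays. The groups lay far apart, with a difference of 1.81 ± 0.11 (SE) and an adjusted p of 3.63e-08. Whether the GFP values of B4galt6 stood above background was not tested, so no fold is given. B4galt5 measured 7.71 to 8.10 and 8.70 to 8.98, a difference of 0.95 ± 0.07 (SE; adjusted p = 4.11e-07). Ugcg, which makes the glucosylceramide they use, did not pass, and neither did Ugt8a, St3gal5, A4galt and Gal3st1, with differences of -0.07 to 0.09. Gltp and Plekha8, glycolipid transfer proteins, were higher by 0.32 and 0.20 (adjusted p = 0.0291 and 0.0429), in calls kept in 14 and 8 of 23 alternative analyses. B4galnt1, which extends gangliosides, was lower by a difference of -0.31 (adjusted p = 0.00301).

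In lysosomal and other glycosphingolipid breakdown, 5 of 9 genes were higher, 2 lower and 2 (Gba2 and Galc) did not pass, against 13.3% higher and 13.7% lower over all genes. Gla, the alpha-galactosidase that is lost in Fabry disease, measured 7.95, 7.51, 7.65, 7.81, 7.91 and 7.60 on the GFP arrays and 8.27, 8.39, 8.39, 8.18, 8.32 and 8.07 on the ChREBP arrays. All ChREBP values were higher, by 0.53 ± 0.08 (SE; adjusted p = 0.000278) in the mean. Psap, the precursor of the saposins that present lipids to the hydrolases, measured 10.34 to 10.52 and 10.76 to 10.92, a difference of 0.46 ± 0.05 (SE; adjusted p = 4.97e-06). Gm2a, the activator protein of ganglioside breakdown, and Hexa, the enzyme subunit it serves, were higher by 0.44 and 0.28 (adjusted p = 3.67e-05 and 0.00143), both with no overlap. Arsa, the sulfatase of sulfatide, was higher by 0.50 (adjusted p = 0.00178). The beta-galactosidase Glb1 and the sialidase Neu1 were lower, with differences of -0.31 and -0.24 (adjusted p = 0.00166 and 0.00823). Macrophages are rich in lysosomes, and 6 of the 8 recruited macrophage markers given above were higher in the same livers. The part of these cells in these differences was not tested.

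**Figure D5:**
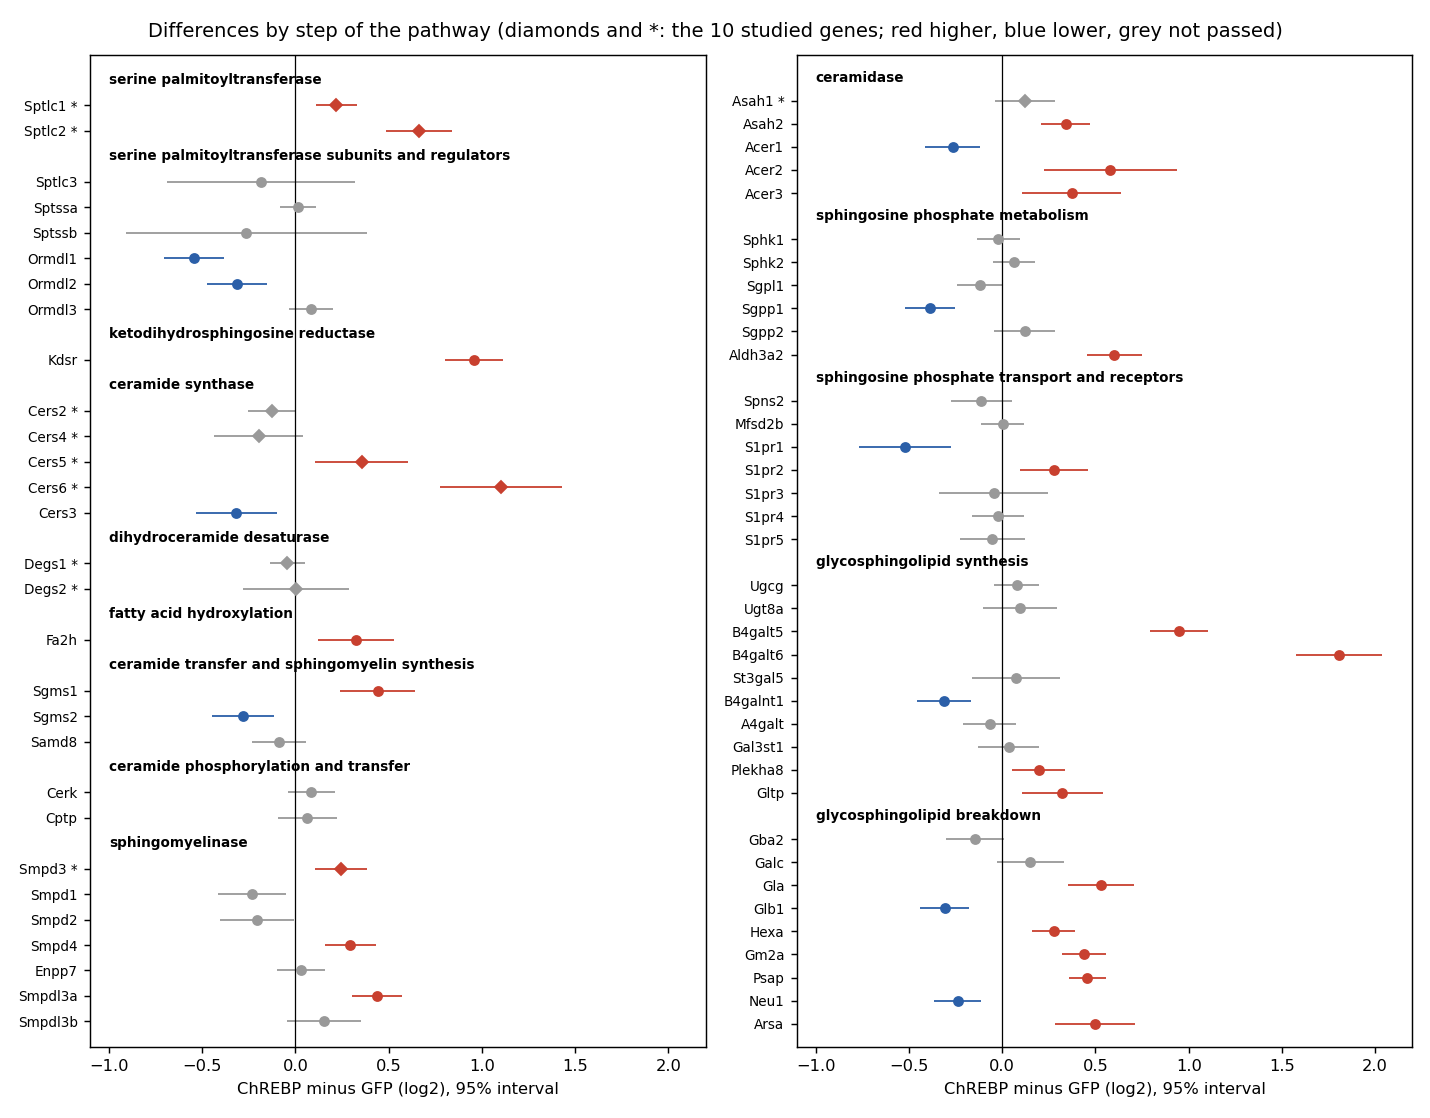
ChREBP minus GFP differences (log2) with 95% intervals for the 10 genes (diamonds, starred) and the 56 other sphingolipid genes (circles), grouped by step. Red marks genes called higher, blue lower and grey those that did not pass; B4galt6, Cers6, Kdsr and B4galt5 reach furthest to the right and Ormdl1 and S1pr1 furthest to the left among called genes.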

How the data were processed

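Whole-liver RNA of 12 mice was amplified, biotin-labelled and read on Affymetrix mouse gene arrays, 1 per mouse. The deposited log2 values were made by the authors with RMA (background correction, quantile normalization and a summary of the probes of each transcript), and the submitters' processing notes also name Partek, both without versions. Detection calls, scan dates and the injected dose were not used here. Precision is limited by the number of arrays.

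Among 35556 rows, 21789 had a single symbol in the platform annotation, 1621 had several symbols, and 12146 had no entry. Entrez IDs matched 21698 of the first kind to the RefSeq table of GRCm38.p6, which supplied current symbols. For each of 19938 genes the brightest of these rows was taken. ChREBP and GFP arrays were compared by limma 3.58.1 under R 4.3.3, using lmFit followed by eBayes with no covariate, two-sided, and p-values were adjusted by Benjamini-Hochberg over all genes. A gene was called at an adjusted p under 0.05. Distances between 2 genes of a step were compared by exact permutation of the 12 arrays. The procedure was tested on simulated data. The 41 named genes of the alternative analyses were the 10 genes, Mlxipl, every other sphingolipid gene that passed and the gene with the smallest p of each step. Other members of small counts are named in the text only. Per-array deviations were drawn for the 10 genes and for other sphingolipid genes that passed with a difference of at least 0.5 in either direction. The genes, lists and left-out arrays were chosen with earlier results of these data known. Motifs were counted in RefSeq promoter windows with Python 3.11.15, and matplotlib 3.10.9 drew the figures.

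The alternative analyses changed the scaling (quantile normalization run again, or arrays centred on their medians), the rows (without the 25% dimmest genes, rows averaged per gene, or each row tested alone), the test (trended prior, weights per array, plain analysis of variance, which the study's methods name for other arrays, a block for replicate number) or the arrays (1 left out at a time, ChREBP 4 and 5 left out, or GFP 4, GFP 6 and ChREBP 6 left out).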

Additional observations from a re-analysis of the deposited data

Results flagged for a closer look

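In 82 groups of 6 arrays (each of the 41 named genes in either virus group), 7 held an array that stood apart from its group by Dixon's ratio, its gap to the nearest other array over the group's range set against the 95% critical value. Chance flags about 5% of such groups. Smpd3 on GFP 2 stood at 5.63, with the next GFP array at 5.34 (ratio 0.738), which is the value that made the Smpd3 groups overlap. Acer2 on ChREBP 5 stood at 9.03, with the next at 8.06 (ratio 0.836). Cers3 stood at 5.65 on GFP 6 (ratio 0.774) and at 5.22 on ChREBP 2 (ratio 0.845). Ormdl2 stood at 8.68 on GFP 2 (ratio 0.662), Acer1 at 4.62 on ChREBP 1 (ratio 0.639) and B4galt6 at 5.05 on GFP 3 (ratio 0.652).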

How the results depend on the processing

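Of 35 named genes that passed the test, 24 kept their call in all 23 alternatives, among them Sptlc1, Sptlc2, Cers6, Kdsr, B4galt5, B4galt6 and Ormdl1. Cers5, Smpd3, Sgms2, Cers3, Acer1, Acer2, Acer3, S1pr2, Plekha8, Gltp and Fa2h did not, and the cause was not tested. Of the 10 genes, 4 or 5 were called higher in every alternative, and 1 (Cers4) was called lower without ChREBP 4 and ChREBP 5. With single arrays left out that count of lower genes ran from 0 to 1. The difference of Degs2 turned to -0.0150 with median centring, -0.0366 with array weights and -0.0720 without ChREBP 4 and ChREBP 5, and ran from -0.0805 to 0.0949 with single arrays left out.

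The gap of Cers6 over Cers5 was 0.718 with repeated quantile normalization (adjusted p = 0.0649) and 0.464 without GFP 4, GFP 6 and ChREBP 6 (0.238), and ran from 0.609 to 0.885 with single arrays left out. The gap of Cers4 over Cers2 was -0.278 without ChREBP 4 and ChREBP 5 (exact permutation, adjusted p = 0.0190), and ran from -0.191 to 0.0053. The gap of Degs2 over Degs1 was -0.0577 there, and ran from -0.0426 to 0.136. The gap of Sptlc2 over Sptlc1 ran from 0.402 to 0.473 with single arrays left out. Its adjusted p, 0.00866, is the smallest these permutations allow and cannot show stability.

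The replicate numbers were not found to pair the arrays: deviations of same-numbered arrays correlated at -0.06 to 0.25, with 1 of 6 over 0.1, and 1 of 6 arrays correlated best with its own number. With the number as a block, 5 of the 10 genes were higher and 0 lower, and 16 and 9 of the 56 others. The gaps of Sptlc2 over Sptlc1 (0.443) and of Cers6 over Cers5 (0.747) then had an adjusted permutation p of 0.125. For Sptlc2 over Sptlc1, 64 assignments cannot take a single pair below that. The Cers6 gap was not at this limit, since in replicate 5 the distance from Cers5 to Cers6 was smaller on the ChREBP array. Cers6 and Cers5 measured 7.80 and 6.18 on GFP 5 and 8.26 and 6.84 on ChREBP 5. Over all genes the block called 2380 higher and 2059 lower, against 2645 and 2730. Median centring called 2364 and 3196.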
